A study of Mus musculus with 5 samples.

Results

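The loci of 5 genes of the neurotrophin pathway were examined for NEUROD2 binding in the embryonic mouse cortex, namely the ligands Bdnf and Ntf3 and the receptors Ntrk2, Ntrk3 and Ngfr. A peak was assigned to a gene when its midpoint lay within the gene span or up to 50 kb from either end, and peaks of different antibodies that overlapped were merged into 1 region. This gave 83 of the 94621 deposited peaks, and 51 of the 53833 merged regions of the whole dataset. Of these 51 regions, 25 held peaks of at least 2 antibodies and are called shared regions, out of 32261 shared regions in the dataset.

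The chromatin came from the cerebral cortex of BALB/c embryos at E14.5, and cortices of many embryos from several litters were pooled for each experiment. NEUROD2 was precipitated with a mouse antibody, ab1, and with a pair of rabbit antibodies, ab2 and ab3, and each precipitate gave 1 library. Antibodies against GFP, a protein absent from wild-type mice, gave 2 control libraries, 1 for each host species, so ab2 and ab3 share a control. All groups share genotype, stage and tissue, no antibody has a biological replicate, and no contrast between conditions exists, so the values below are described beside the same values over all genes or all regions and no test was made. Peak lists carry no expression values, so the tissue could not be checked against marker genes.

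Neurotrophins are secreted proteins that support the survival of neurons, the growth of their axons and dendrites, and the strength of their synapses. Bdnf encodes brain-derived neurotrophic factor, which acts through the tyrosine kinase receptor TrkB, the product of Ntrk2, and Ntf3 encodes neurotrophin-3, which acts mainly through TrkC, the product of Ntrk3. Both receptor genes also make shorter proteins that lack the kinase domain. Ngfr encodes the shared neurotrophin receptor of the tumour necrosis factor receptor family, which has no kinase and binds all neurotrophins. NEUROD2 is a basic helix-loop-helix transcription factor of differentiating excitatory neurons, and such factors recognise a short sequence called the E-box.

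The extended E-box named in the study is a core of CAGCTG or of CAGATG, or else of CATCTG or of CATATG, with a G or a T as the next base, which makes 8 words. They were searched on both strands of the mm10 reference, and matches of both strands at the same core were counted once. The windows below show how near such a word came to the midpoint of the three-antibody regions and of up to 3 regions of highest summed score at each locus. Each is written 5′ to 3′ on the strand given, and capitals mark the extended E-box closest to the midpoint of the region. Regions are numbered within each locus in the direction of transcription.
Bdnf region 1, chr2:109678294-109678320, plus strand: ccacccttccCAGATGGtgctgtttta
Ntf3 region 2, chr6:126164993-126165019, plus strand: ccaacccggcCAGATGGctccgcgctc
Ntf3 region 4, chr6:126162416-126162442, plus strand: acgcacaagcCATCTGTcttcagcaca
Ntrk2 region 1, chr13:58806421-58806447, plus strand: ggcggttgcgCATCTGGagctgcagtg
Ntrk2 region 8, chr13:58968187-58968213, minus strand: ggtggaggggCATCTGGgaggaggtgg
Ntrk2 region 17, chr13:59148644-59148670, plus strand: ccactctccaCAGATGTcctgagatac
Ntrk3 region 1, chr7:78620341-78620367, plus strand: gagccatgggCAGCTGGcagcttcttg
Ntrk3 region 3, chr7:78596961-78596987, plus strand: aaaaggtaccCATCTGGcctgctaacc
Ntrk3 region 7, chr7:78542650-78542676, minus strand: gttgctatggCATCTGTcatgcaggct
Ntrk3 region 15, chr7:78390132-78390158, plus strand: ggactagagaCAGATGGggccacaaca
Ngfr region 3, chr11:95575109-95575135, plus strand: aggaagcagaCAGCTGGcggagggagg
Ngfr region 7, chr11:95527533-95527559, minus strand: taggtgctgtCAGATGGtaggaggagc
Ngfr region 8, chr11:95520757-95520783, plus strand: agaaaataggCATCTGGccaggcgcca
The distance from the midpoint varied widely among these regions. The word lay 6 bp away in Ntf3 region 4, 8 bp in Ntrk3 region 15, 18 bp in Ntrk3 region 1, 22 bp in Ntrk3 region 7 and 81 bp in Ntrk2 region 17. It lay outside the central 200 bp in the other 8: 118 bp away in Ngfr region 7, the highest-scoring region of all 5 loci, 149 bp in Ngfr region 3, 203 bp in Ntf3 region 2 and 217 bp in Ntrk2 region 8. In Ntrk3 region 3, the highest-scoring of its locus, the distance was 396 bp, and it was 485 bp in Bdnf region 1, 491 bp in Ngfr region 8 and 1153 bp in Ntrk2 region 1.

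The antibodies contributed very different numbers of peaks. The 5 loci held 50 ab1 peaks, 29 ab2 peaks and 4 ab3 peaks, with a mean of 27.7 ± 23.0 (SD, n = 3 antibodies), against 51841, 35310 and 7470 peaks in the whole lists. Every shared region combined ab1 and ab2, so that without ab1, or without ab2, the 3 regions called with all antibodies were the shared regions left, and peaks with a score of at least 100 gave 16. A region of any antibody was present at all 5 loci, as it was in the windows of 78.7% of 21938 protein-coding genes, and a shared region was also present at all 5, beside 67.6% of protein-coding genes. Regions with all 3 antibodies occurred at Ntrk2, Ntrk3 and Ngfr, with 1 each, and were not called at Bdnf or Ntf3; 26.7% of protein-coding genes had one.

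**Figure D1:**
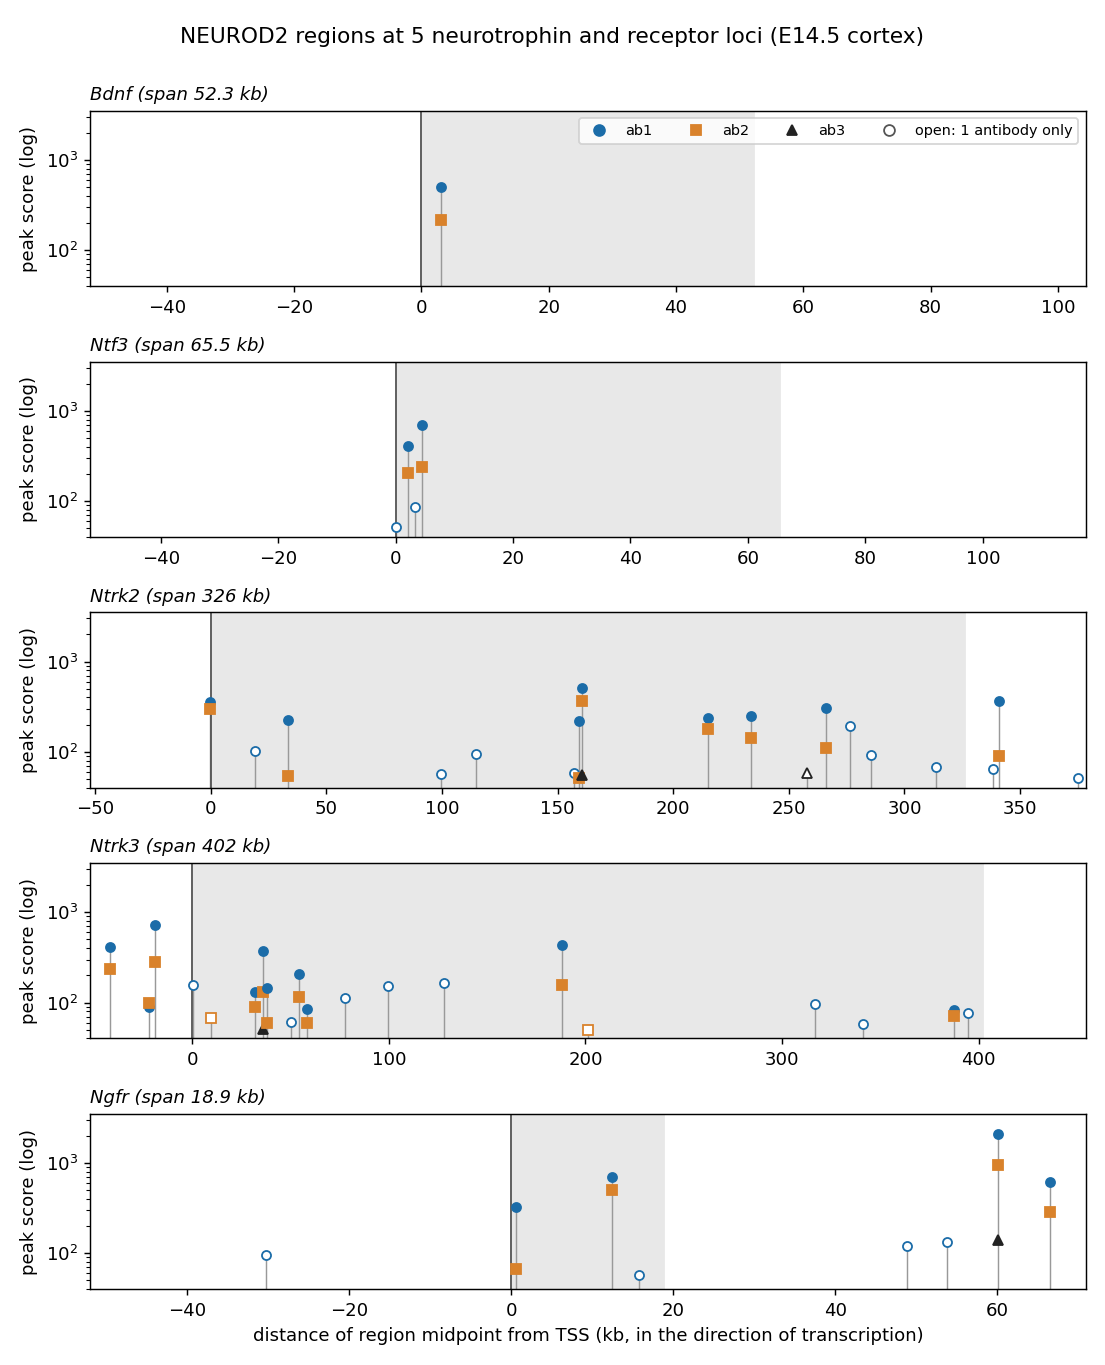
Peak score (vertical, log axis) against the distance of the region midpoint from the transcription start site in kb (horizontal), for each of the 51 regions; blue circles are ab1, orange squares ab2 and black triangles ab3, open symbols are regions of 1 antibody, the grey band is the gene span and the dark line the start site. The Bdnf and Ntf3 panels hold 1 and 4 regions near the start site, while the 18 regions of Ntrk2 and 20 of Ntrk3 are spread over and around the genes, and the highest score, 2102 with ab1, lies 60.1 kb past the Ngfr start site.

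The ligand gene Bdnf (chr2:109674700-109727007, plus strand, 11 annotated transcripts) had a single region. It spanned chr2:109676921-109678722 and scored 498 with ab1 and 217 with ab2, and ab3 gave no peak. The score is 10 times the negative log10 of the p-value of the peak caller, so that larger values mean a clearer excess over the GFP control, and it was not scaled between libraries. Within their own lists, these peaks stood above 80.5% of ab1 peaks and 68.1% of ab2 peaks. The region was intronic in the transcript with the longest span, 3.12 kb past its transcription start site (TSS), and covered the TSS of another transcript, Bdnf-206, at position 109677032. Its midpoint was 1231 bp from the TSS of the antisense gene Gm45346, which was closer than the TSS of the longest Bdnf transcript.

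Bdnf is known for many alternative first exons, each spliced to a common coding exon. In the annotation, 4 transcripts began upstream of the region, Bdnf-206 began inside it, and 6 began 14614 to 31561 bp beyond its midpoint. None of these 6 downstream start sites had a region of any antibody over it, and no region followed over the remaining 98.3 kb of the window. Thus the peaks at Bdnf lay among the upstream start sites. The absence of a peak from these lists does not show the absence of binding, since the depth behind each list cannot be read from it. The central 200 bp of Bdnf region 1 held no extended E-box and no loose E-box of the form CANNTG, although 2 extended E-boxes lay elsewhere in its 1802 bp.

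Ntf3, the other ligand gene (chr6:126101412-126166910, minus strand), had 4 regions, all within the first 5 kb of the gene. Ntf3 region 4 in intron 1 (chr6:126161966-126162903) had the highest scores, with 699 for ab1 and 241 for ab2, 4.47 kb past the TSS. Region 2, also in intron 1 (chr6:126164309-126165297), scored 411 with ab1 and 204 with ab2 and covered the TSS of the transcript Ntf3-203. The other 2 regions were seen with ab1 alone: region 1 at the TSS of the longest transcript, in its 5′UTR exon, with a score of 51.0, and region 3 with 86.6. The peak over the main start site was therefore close to the lowest score in the ab1 list, 50, and above 1.08% of ab1 peaks. Beyond region 4, the following 111 kb, which include the second exon and the downstream flank, held no region. At both ligand genes, all regions lay at the 5′ end of the gene.

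**Figure D2:**
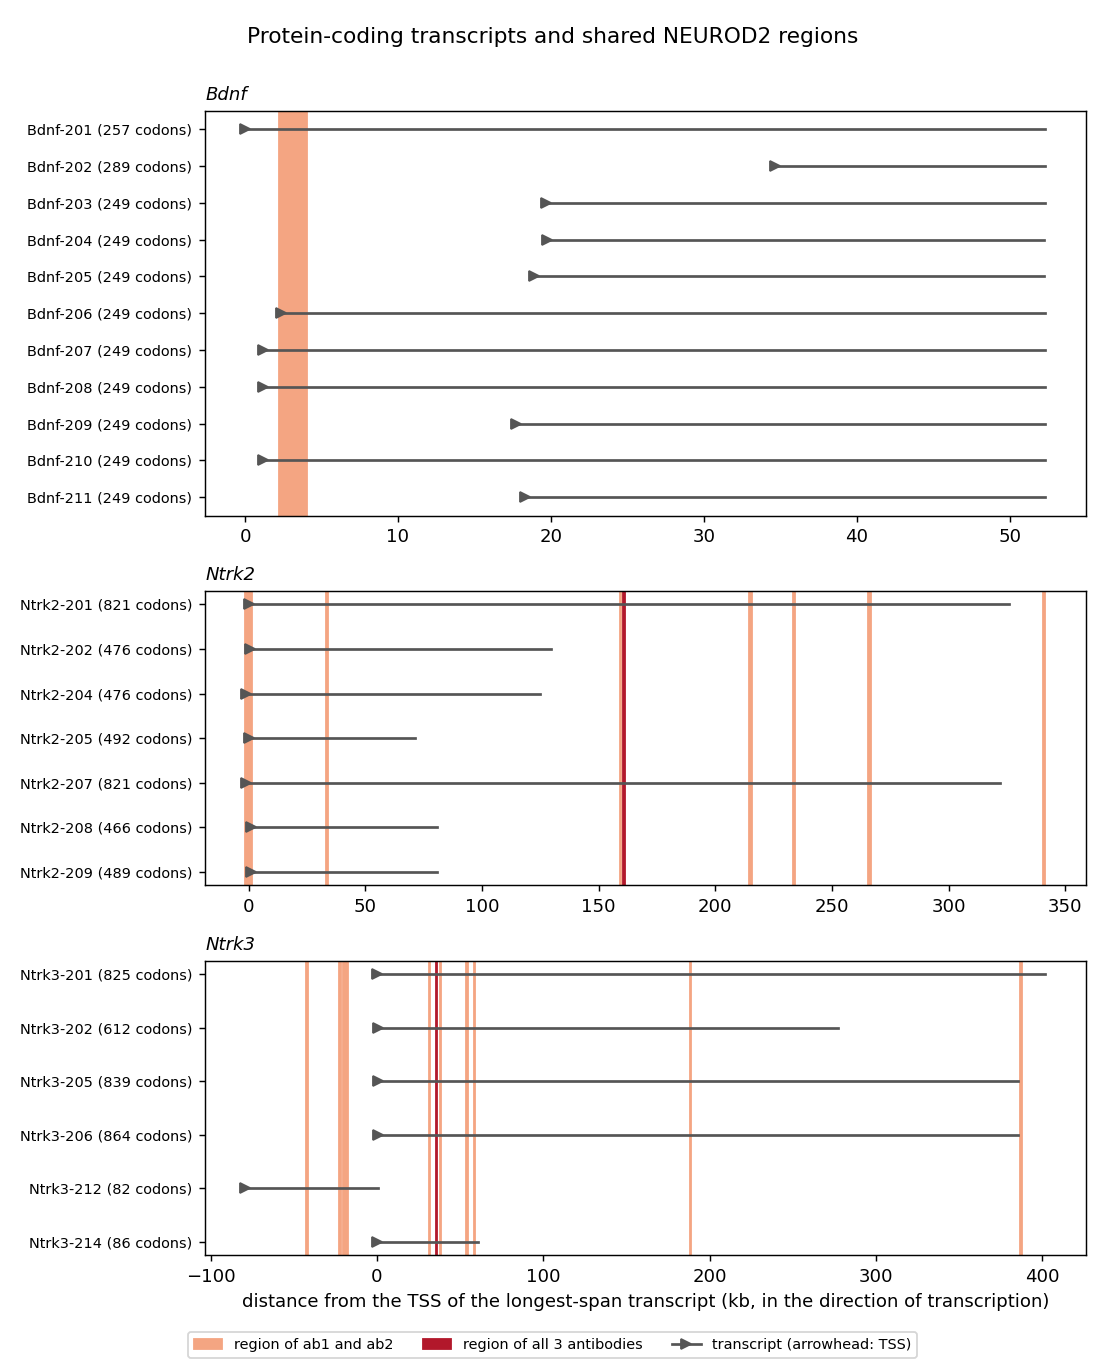
Protein-coding transcripts of Bdnf, Ntrk2 and Ntrk3 (grey lines, arrowheads at the TSS, coding length in codons) and shared regions (vertical bands, light for ab1 and ab2, dark red for all 3 antibodies) against the distance from the TSS of the longest-span transcript in kb. The single Bdnf band lies upstream of 6 start sites. Inside the Ntrk2 span, 5 bands lie past the ends of the transcripts with 466 to 492 codons, in the remaining 60.4% of the span.

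Ntrk2 (chr13:58807697-59133970, plus strand) had 18 regions, of which 8 were shared and 1 was called with all 3 antibodies. This was Ntrk2 region 8 in intron 12 (chr13:58967983-58968851), where ab1 scored 508, ab2 366 and ab3 55.5. It had the highest summed score of the locus, and its ab3 score was above 11.6% of ab3 peaks, near the lower end of that list. Region 7, next to it in the same intron (chr13:58966715-58967442), scored 217 with ab1 and 51.1 with ab2, the latter above 1.63% of ab2 peaks. A shared region also covered the promoter. Ntrk2 region 1 (chr13:58806076-58809097) spanned 3022 bp over the start sites of 8 of the 10 Ntrk2 transcripts and scored 354 with ab1 and 295 with ab2. The midpoints of its ab1 and ab2 peaks lay 541 bp apart, the largest such distance among the 25 shared regions, whose median was 65 bp. In 17 of these 25 regions the midpoints lay within 100 bp of each other, and in 76.1% of all shared regions.

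Among the coding transcripts of Ntrk2, the full-length ones alone cover the last 60.4% of its span. The annotation holds 5 shorter coding transcripts of 466 to 492 codons, which all end by position 58937027, and 2 full-length transcripts of 821 codons. Of the 6 shared regions inside the gene span, 5 lay past the last end of the shorter transcripts, in the remaining 60.4% of the span, and region 3 lay before it in intron 4. Counting regions of any antibody, 10 of 14 lay past it, and neither count was tested against that share of the span. Besides regions 7 and 8, these shared regions were region 9 in intron 13, with 235 for ab1 and 179 for ab2, region 10 in intron 14, with 248 and 141, and region 12 in intron 16, with 303 and 111. Their ab1 scores, from 217 to 508, overlapped with those of the promoter and intron 4 regions. Between region 3 and region 7, a stretch of 125 kb had no shared region. The only shared region outside the gene apart from the promoter was region 17, downstream of the gene (chr13:59148264-59149212), with 365 for ab1 and 90.9 for ab2. The TSS closest to it was that of the lincRNA gene Gm34354, at 910 bp. With 1 TSS for each gene, that of its longest-span transcript, the one closest to region 3 was of the antisense gene Gm47423, at 14154 bp, and the one closest to regions 7 to 10 and 12 was of Gm34245, a locus annotated as to be experimentally verified, at 4474 to 111217 bp. Start sites of other Ntrk2 transcripts were closer in part, at 5333 bp for region 3, 95344 bp for region 7 and 96682 bp for region 8.

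Ntrk3 (chr7:78175959-78578408, minus strand) had 20 regions, 10 of them shared. Ntrk2 had 8, and the numbers were equal at a score of at least 100, with 5 at each gene, and with 10 kb on either side, with 7 at each. Unlike Ntrk2, it had no shared region at its TSS. Region 4, which covered 7 Ntrk3 start sites over 2483 bp (chr7:78577011-78579493), was called with ab1 alone, at a score of 156, which is above 51.7% of ab1 peaks. The shared region closest to the TSS of the longest transcript was instead Ntrk3 region 3, whose midpoint lay 18962 bp upstream of it. That region (chr7:78595654-78599086) was the widest of the 25 shared regions, with 3433 bp, and had the highest summed score of the locus, with 720 for ab1 and 282 for ab2.

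Besides region 3, regions 1 and 2 lay upstream. Region 1 (chr7:78619810-78620934) scored 411 with ab1 and 233 with ab2. Region 2 (chr7:78600019-78601185) scored 90.4 with ab1 and 98.0 with ab2, and it was the single shared region of the 5 loci where ab2 scored above ab1. These 3 regions lay inside annotated Ntrk3 transcripts that start further upstream, among them the coding transcript Ntrk3-212, which begins at position 78657724. In the direction of transcription, 5 shared regions followed in intron 1, at 31.7 to 58.5 kb from the TSS. The three-antibody region, Ntrk3 region 7 (chr7:78542292-78543078), was one of them, where ab1 scored 375, ab2 132 and ab3 50.7. Its ab3 score was above 1.34% of ab3 peaks. The other 4 regions of this group scored 86.0 to 207 with ab1 and 59.9 to 114 with ab2, lower with each antibody than region 7. At a score of at least 100 with each antibody, regions 7 and 10 of these 5 were still shared.

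The rest of Ntrk3 was sparse in shared regions. Cutting the gene span into 3 equal parts gave 5, 1 and 1 shared regions from the 5′ to the 3′ end. The middle one, Ntrk3 region 15 in intron 11 (chr7:78389844-78390462), was the second highest of the locus by ab1, with 432, and scored 158 with ab2. The last, region 19 (chr7:78190706-78191478), lay in the 3′UTR within exon 17 and scored 82.0 and 70.2. A stretch of 198 kb between them had no shared region. A shorter coding transcript, with 612 codons against 825 to 864 for the full-length forms, ends at position 78300690, and 1 of the 7 shared regions inside the span lay past it. Set side by side, at Ntrk2 5 of 6 and at Ntrk3 1 of 7 shared regions inside the gene lay past the ends of the shorter coding transcripts, which leave 60.4% and 31.0% of the span. With 1 TSS for each gene, non-coding genes were closest, namely Gm9885 for the upstream regions, at 18540 to 41542 bp, Gm39038 for those in intron 1, at 28479 to 55331 bp, 4921513I08Rik for region 15, at 135857 bp, and Gm44607 for region 19, at 21607 bp. Start sites of other Ntrk3 transcripts were closer than these genes for region 1, at 2970 bp, for the regions in intron 1, at 25138 to 51990 bp, for region 15, at 12331 bp, and for region 19, at 1651 bp.

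Ngfr (chr11:95568818-95587735, minus strand) had the highest density of shared regions among the 5 loci, with 8 regions and 4 shared. Region 2 (chr11:95586216-95588032) covered the TSS and scored 327 with ab1 and 66.5 with ab2. Region 3 in intron 3 (chr11:95574613-95575928) scored 695 with ab1 and 500 with ab2. The other 2 lay downstream of the gene. In Ngfr region 7 (chr11:95527042-95528286), ab1 scored 2102, ab2 956 and ab3 139, the highest value of each antibody among the 5 loci, and stood above 96.8%, 94.5% and 72.5% of the peaks of the respective lists. Region 8 (chr11:95520357-95522165) scored 624 and 286. Both downstream regions were closer to another gene, Nxph3, which encodes a neurexophilin, with its TSS 13094 bp from region 7 and 6691 bp from region 8. Of the 4 shared regions counted for Ngfr, 2 therefore lay at the gene itself, and peak positions do not tell which gene a distal region acts on.

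Measured per 100 kb of window, shared regions numbered 0.657 at Bdnf, 1.21 at Ntf3, 1.88 at Ntrk2, 1.99 at Ntrk3 and 3.36 at Ngfr, against a median of 0.95 over protein-coding genes. These densities were higher than those of 36.5%, 55.4%, 68.1%, 72.0% and 86.6% of protein-coding genes, respectively. The density and rank of Ngfr include its 2 shared regions closer to Nxph3. The windows of Ntrk2 and Ntrk3, with 426 and 502 kb, were longer than those of 97.8% and 98.4% of genes. Counted as peaks of one antibody, the order of neighbouring loci was not the same: ab1 gave 3.99 peaks per 100 kb at Ntrk2 and 3.78 at Ntrk3, while ab2 gave 2.11 and 2.59. With ab1, Bdnf was lowest with 0.657, Ntf3 next with 2.42 and Ngfr highest with 7.57, and ab2 gave 0.657, 1.21 and 3.36 in the same order. Leaving out the downstream regions near Nxph3 by a window of 10 kb on either side left Ngfr with 2 shared regions, and a window of 100 kb gave it 8. Just outside the windows of 50 kb, the nearest shared regions lay 98.8 kb from the Bdnf span, 168 kb from Ntf3, 78.5 kb from Ntrk2, 89.6 kb from Ntrk3 and 53.2 kb from Ngfr, while the outermost inside lay 14.8 kb from Ntrk2, 42.0 kb from Ntrk3 and 47.6 kb from Ngfr. The Bdnf, Ntf3 and Ntrk3 ones outside were three-antibody regions, and those nearest to Bdnf and Ntrk3 scored 1520 and 1858 with ab1, higher than any region inside either window.

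**Figure D3:**
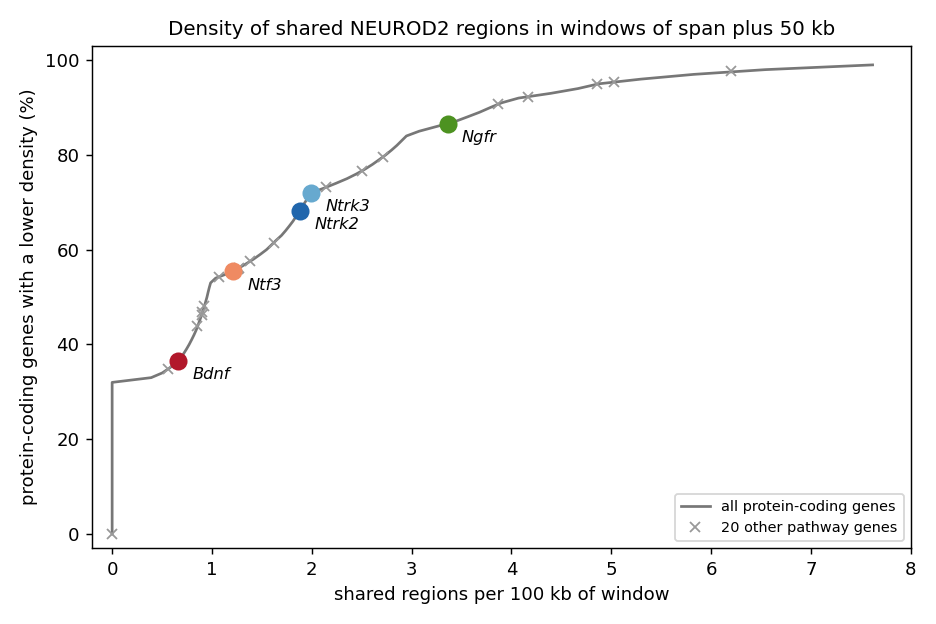
Shared regions per 100 kb of window (horizontal) against the share of 21938 protein-coding genes with a lower density (vertical, %); the grey line runs up to the 99th percentile of all protein-coding genes, coloured points are the 5 loci and grey crosses the 20 other pathway genes. Bdnf lies at 0.657, below the median of 0.95, and Ngfr at 3.36, above 86.6% of genes.

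The scores of ab1 and ab2 in the 25 shared regions were correlated. On the log10 scale their Pearson correlation was 0.826 and Spearman's rho was 0.821, across 25 regions of 2 libraries, which are not independent replicates. The ab1 score was higher in 24 of 25 regions, with ratios of ab1 to ab2 from 0.923 to 4.92, between scores that are not scaled to each other. The median ab1 score was 354, against 278 in all shared regions, and the median ab2 score was 141, against 140. Regions with all 3 antibodies made up 12% of the shared regions (3 of 25, 95% Wilson interval 4.17 to 29.96), beside 22.2% in the dataset. Such intervals cover counting error and not the spread between experiments. The 26 regions of 1 antibody were 23 of ab1, 2 of ab2 and 1 of ab3, and made up 51.0% of the regions, against 40.1% in the dataset. The share of regions with ab1 alone, 23 of 51, stood beside 35.0% in the dataset. Scores of the ab1-only regions ran from 51.0 to 191, with a median of 92.8, and 5 shared regions, all at Ntrk3, had ab1 scores within that range.

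**Figure D4:**
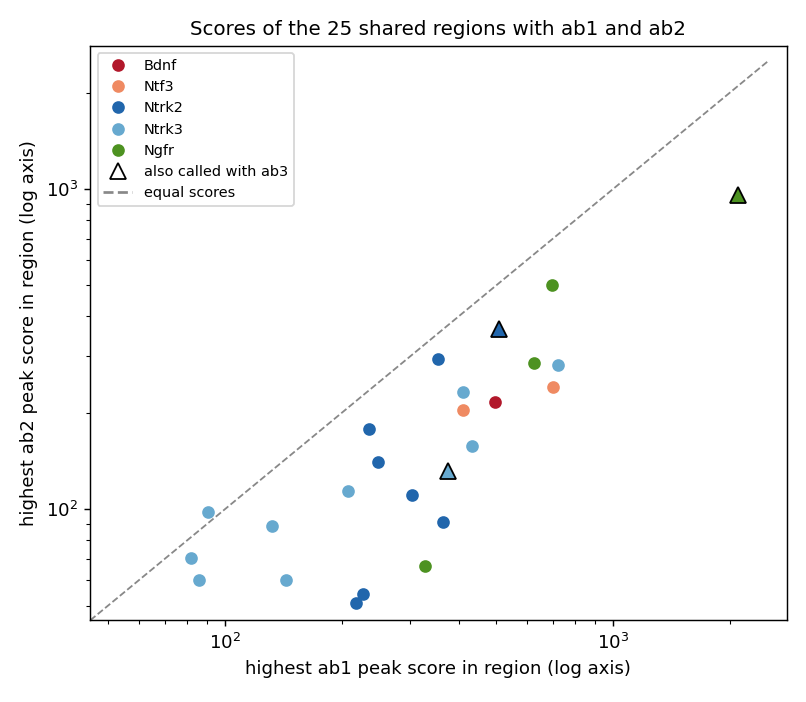
Highest ab2 score (vertical) against highest ab1 score (horizontal) in each of the 25 shared regions, both on log axes, coloured by locus, with triangles for regions also called with ab3 and a dashed line where the scores are equal. All but 1 Ntrk3 region lie below the line, and Ngfr region 7 stands at the upper end with 2102 and 956.

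Of the 25 shared regions, 18 lay inside the gene spans, 17 in introns and 1 in an exon. Since position chose the regions, and the spans of Ntrk2 and Ntrk3 fill 326 of 426 kb and 402 of 502 kb of their windows, this count was not set against other regions. With a TSS of any gene within 1 kb there were 3 regions (12%, against 15.7%), namely Ntrk2 region 1, Ngfr region 2 and Ntrk2 region 17. A shared region within 1 kb of the TSS of the own longest-span transcript was thus present at Ntrk2 and Ngfr, and 20.8% of protein-coding genes had one. When the start sites of all transcripts were used, the count rose to 5. The added ones were Bdnf region 1, 790 bp from the TSS of Bdnf-206, and Ntf3 region 2, 157 bp from that of Ntf3-203. No share over all genes or all regions is given for these start sites, so the 15.7% and 20.8% are not comparable. The median GC content of the central 200 bp was 55%, against 51.0% in all shared regions, and the promoter region of Ntrk2 was the single one at 65% or more, a level reached by 10.6% of all shared regions. The median width was 949 bp, against 865 bp, and 5 regions spanned 1500 bp or more, against 13.0%.

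Of the 25 shared regions, 10 held the extended E-box within the central 200 bp (40%, 95% Wilson interval 23.4 to 59.3), against 59.6% of all shared regions. Flanking windows of that size, 1000 bp beyond either end, held it in 5 (20%) and 3 (12%) of 25 cases, against 22.3% on either side in the dataset. Among shared regions, most of these E-boxes were at Ntrk3, where 7 of 10 shared regions held one, while the other loci held 3 in 15 regions: 2 of 8 at Ntrk2, 1 of 2 at Ntf3, 0 of 1 at Bdnf and 0 of 4 at Ngfr. All 5 shared regions of Ntrk3 intron 1 held the word, with 3 copies in region 10 and 2 in region 7, and region 15 in intron 11 also held 3. Of 16 copies, 11 had the core CAGATG, which is CATCTG on the opposite strand, against 55% of the copies in all shared regions, and 5 had CAGCTG, against 31.7%. CATATG, at 13.4% in the dataset, was not among them, but occurred 3 times in regions of 1 antibody at Ntrk2 and Ntrk3. Regions of 1 antibody held the extended E-box in 13 of 26 cases (50%), against 57.1% in the dataset, with 6 of 10 at Ntrk2, 5 of 10 at Ntrk3, 2 of 4 at Ngfr and 0 of 2 at Ntf3, so the word was not limited to Ntrk3. Searching the whole region gave 23 of 25 (92.0%), against 90.3%. With the midpoint of the highest peak as the centre, the share was 48.0%, without a share over all shared regions for that centre.

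For single antibodies, with each peak centred on its own midpoint, the word was present in 25 of 50 ab1 peaks (50%), 13 of 29 ab2 peaks (44.8%) and 2 of 4 ab3 peaks (50%), a mean of 48.3% ± 2.99 (SD, n = 3 antibodies). Over all peaks of the lists the shares were 59.4%, 59.2% and 72.5%, a mean of 63.7% ± 7.61. The 95% Wilson intervals at the 5 loci, 36.6 to 63.4% for ab1, 28.4 to 62.5% for ab2 and 15 to 85% for ab3, contained the share of the whole list in each case. The difference was thus within counting error for each antibody, though the ab3 interval rests on 4 peaks. For the 25 shared regions, the interval of 23.4 to 59.3% ended just below the 59.6% of all shared regions. The peaks behind the SD largely cover the same regions. The GC content of these regions also differed from that of the dataset. A central GC content of 55 to 65% was found in 13 of the 25 shared regions and in 21.6% of all shared regions. Over all shared regions, the word was present in 65.4% of those under 45% GC, 67.5% from 45 to 55%, 56.9% from 55 to 65% and 19.2% at 65% or more. At the 5 loci it was present in 1 of 4, 4 of 7, 5 of 13 and 0 of 1 regions of these bands, and the part of GC content in the share was not tested.

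**Figure D5:**
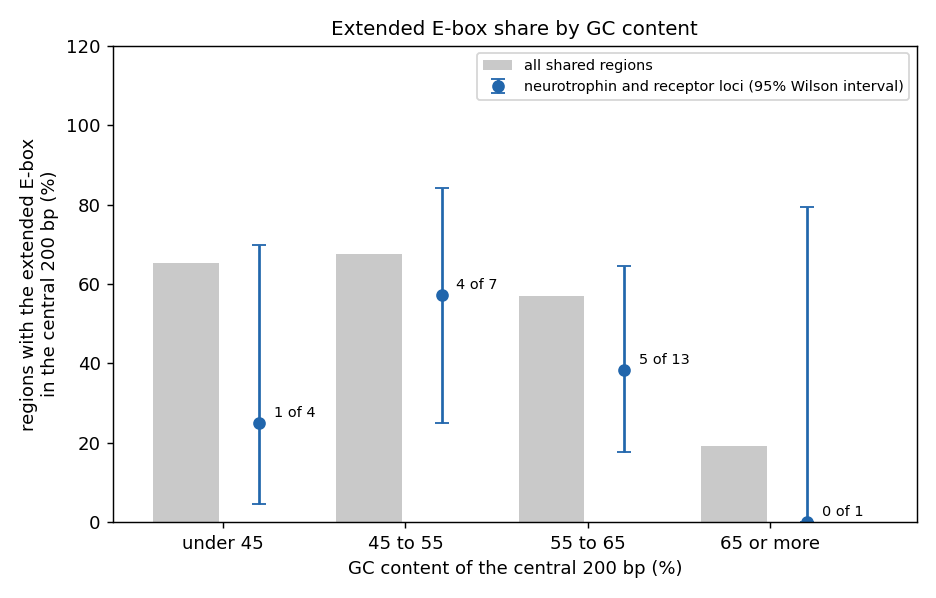
Share of shared regions with the extended E-box in the central 200 bp (vertical, %) by GC content of that window (horizontal, 4 bands, %); grey bars are all shared regions and blue points the 25 regions of the 5 loci with 95% Wilson intervals for counting error. The points lie below the bars in each band, with 1 of 4, 4 of 7, 5 of 13 and 0 of 1 regions, and the intervals are wide.

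The other genes of the pathway were counted in the same way from a list of 20, made up of 2 ligands, 5 receptors and co-receptors and 13 intracellular adaptors and effectors. A shared region was present at 19 of 20 genes (95%, against 67.6%), a three-antibody region at 9 (45%, against 26.7%), and a shared region within 1 kb of the own TSS at 6 (30%, against 20.8%). These shares were not adjusted for window length, and the windows of the list were longer than those of 12.9% of genes at Ntf5 to 99.3% at Sorcs3. The median density was 1.5 shared regions per 100 kb, with a range of 0.0 to 6.2, against a median of 0.95 over protein-coding genes. The ligand Ntf5, which acts through TrkB, had 7 regions, 4 of them shared, and 3.87 shared regions per 100 kb.

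The sortilin family holds proteins that bind neurotrophin precursors or sort neurotrophin receptors within the cell. Sort1 had 14 regions, 11 shared and 4 with all 3 antibodies, which was the highest density of the list with 6.2 shared regions per 100 kb. Sorcs1 had 13 regions and 8 shared, Sorcs2 23 and 12, and Sorcs3 26 and 15, in long windows that gave 1.26, 2.5 and 2.14 shared regions per 100 kb. All 13 adaptor genes had a shared region, beside 67.6% of protein-coding genes, and 4 of them had one with all 3 antibodies, beside 26.7%. The highest densities among them were 5.03 at Shc2, 4.86 at Grb2 and 4.17 at Gab1, which encode adaptor proteins that link activated receptor tyrosine kinases to downstream signalling.

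For each locus, the protein-coding genes with the most similar summed peak scores per 100 kb over the 3 antibodies were found by the distance on the log10(value + 1) scale. Among these were Metap2 and Ccdc80 for Bdnf, Wdr6 and Il3 for Ntf3, Sorcs1 and Ryr3 for Ntrk2, Tln2 for Ntrk3, and Tmem50b for Ngfr. The distances of these named genes ranged from 0.00123 for Ntf3 and Wdr6 to 0.103 for Ntrk3 and Tln2. Sorcs1, which is also on the pathway list, was the closest to Ntrk2. Its summed scores per 100 kb were 791 with ab1, 325 with ab2 and 26.8 with ab3, beside 760, 315 and 26.5 at Ntrk2.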

How the data were processed

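NEUROD2 ChIP-Seq of E14.5 mouse cortex was represented by 3 deposited peak lists, 1 for each antibody. The authors aligned reads to mm10 with Bowtie, kept uniquely mapped reads without duplicates, and ran MACS once per antibody, with GFP chromatin of the matching host as control. The score deposited with each peak is 10 times the negative log10 p-value that MACS gave. The lowest scores were 50.0, 50.0 and 50.01, so weaker peaks are not listed. The lists give no read counts, so the number of reads behind a peak is unknown, and the read totals of the libraries given with the study were not used here. The 2 GFP libraries were not analysed here as data.

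Peak midpoints were placed on GENCODE M21 with the longest-span transcript of each gene, 50 kb was added to either end, and peaks that overlapped by at least 1 bp were merged. Positions count from 1. Sequences came from the GRCm38 reference of mm10, which is of another strain than BALB/c, so strain variants were not seen. The motif was searched in 200 bp around the midpoint of each region. Shares have 95% Wilson intervals, which cover counting error. Merging and motif search were tested on simulated data. Python 3.11.15, numpy 2.4.6, scipy 1.17.1, pysam 0.24.0 and matplotlib 3.10.9 were used.

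The 5 genes, the pathway list and the rule for named regions were chosen with earlier results of these data known. Named were all three-antibody regions, the 3 shared regions of highest summed score and the shared region closest to the TSS of each locus, neighbouring genes with the TSS closest to a shared region, the ligands and receptors of the list with the 3 other genes of highest density, and the 2 most similar genes for each locus. Other shared regions were named to complete the layout of Ntrk2, Ntrk3 and Ngfr. The alternatives tried were other score, overlap, window and transcript choices, other motifs and centres, and each antibody left out. Some genes that the rule would name are not reported here.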

Additional observations from a re-analysis of the deposited data

How the results depend on the processing

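Shared regions at the 5 loci rest on ab1 and ab2 together. Leaving out 1 antibody at a time gave 30 to 51 regions, 3 to 25 shared regions, an extended E-box share of 33.3 to 40% and 0 to 3 shared regions within 1 kb of a TSS; the lowest counts of shared regions came without ab1 and without ab2, which left 3 in each case. The three-antibody count cannot be made without an antibody. With a score of at least 100, 30 regions remained in place of 51, with 16 shared in place of 25, 1 with all 3 antibodies in place of 3, and 1 within 1 kb of a TSS in place of 3. A window of 100 kb gave 6 three-antibody regions, and start sites of all transcripts gave 5 shared regions within 1 kb. The E-box share of 40% became 68.0% with the loose E-box and 92.0% over the whole region, and was 24.0% in the central 100 bp and 48.0% with CAGCTG and CAGATG before any base or with the centre at the highest peak. Of these settings, only the whole region has a share over all shared regions beside it, 90.3%. At single loci, the span of all transcripts gave 15 shared regions at Ntrk3 in place of 10. A score of at least 100 left 5 at Ntrk3 and 5 at Ntrk2 in place of 8, and 100 kb windows gave 2 at Bdnf in place of 1 and 8 at Ngfr in place of 4, where 10 kb windows left 2. No paired analysis was possible because the results come from no test and the GFP libraries, which share replicate numbers with NEUROD2, have no peak list among the files used here. Peak scores follow the depth of each library, which the lists do not give, so the absence of an ab3 peak may not be read as the absence of binding.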
